A study of Homo sapiens with 13 samples.

Results

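The comparison described here set mRNAs captured with miR-23b directly against those captured with miR-27a, miRNAs of 2 families that are encoded side by side in the genome. Its 5 libraries (2 miR-23b and 3 miR-27a, of 13 in the whole series) were chosen by the titles of the samples. HEK293T, a human embryonic kidney line, was transfected with 200 pmol of a synthetic duplex whose miRNA strand carried biotin. Cells were lysed after 24 h, the duplex was recovered on streptavidin beads, and the mRNA that came with it was labeled and hybridized to Illumina bead arrays. The 8 other libraries came from the same line and dose, with duplexes of the miR-17 family (6 libraries of miR-17-5p or of its 5′-shifted variant, miR-17-5p-iso) or with miR-182-iso (2 libraries). No mock-transfected library was used here, and an exogenous duplex in 1 cell line limits what the libraries stand for. Nothing in the labels says that replicates were separate cultures, so p-values measure the spread between these samples, which may be technical.

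A miRNA guides Argonaute proteins to mRNAs, and pairing of its seed (bases 2 to 8) with the transcript is the best known means of recognition. Centered sites pair instead with the middle of the miRNA. The miR-23, miR-27 and miR-24 families are transcribed together from a pair of paralogous clusters. miR-23b is known for targets in transforming growth factor β signaling and cell migration, and miR-27a for targets in lipid metabolism and growth control.

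The sequences are shown because the duplexes begin almost alike. In GRCh38.p14 (RefSeq), miR-23b lies at chr9:95085265-95085287 on the plus strand, within 881 bases that also hold miR-27b and miR-24, and miR-27a lies at chr19:13836447-13836467 on the minus strand, within 373 bases that also hold miR-23a and miR-24. Capitals mark the seed.
miR-23b, transfected strand: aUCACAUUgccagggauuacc
miR-27a, transfected strand: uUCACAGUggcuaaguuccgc
miR-23a-3p: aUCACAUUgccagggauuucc
miR-27b-3p: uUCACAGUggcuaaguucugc
miR-24-3p: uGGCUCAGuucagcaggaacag
Counted from the 5′ end, the transfected strands had the same base at 11 of 21 positions, and at 6 of the 7 seed positions. The seed carried a single substitution, U7G, with the base of miR-23b first, and bases 2 to 6 were identical. The miR-23b strand was the RefSeq mature sequence without its last 2 bases, and the miR-27a strand was the whole mature sequence. Of 2370 mature human miRNAs in the RefSeq table, 3 had the miR-23b seed (miR-23a-3p, miR-23b-3p and miR-23c) and 3 had the miR-27a seed (miR-27a-3p, miR-27b-3p and miR-9985).

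Each value was the signal of an array probe on the scale the authors deposited, a log2-like scale that flattens toward its floor, so that differences of dim probes are understated. The table held 12007 probes for 8380 genes, and values ran from 7.42 to 15.5. Pearson correlations over all probes were 0.984 between the miR-23b libraries, 0.959 to 0.973 among the miR-27a libraries and 0.928 to 0.953 between the duplexes. Those of miR-23b with the miR-17 libraries (0.897 to 0.952) overlapped this last range. The median SD between replicates was 0.10 for miR-23b and 0.178 for miR-27a. Of 8 markers of the line, 7 were in the table. CDH2 (N-cadherin) was at 12.62 and 12.93 with miR-23b and at 12.43 to 13.30 with miR-27a, and VIM (vimentin) was lower. The others were dimmer still. Across both duplexes NEFM lay no higher than 8.85, SOX11 than 8.24, KRT8 than 8.22 and NEFL than 7.93. KRT18 lay at 7.45 to 7.59, near the floor. Of 12 markers of other cell types only COL1A1 was listed, at 7.49 to 7.59. None of the markers was called different between the duplexes.

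With miR-23b, 470 probes (3.91%) were captured at a higher level than with miR-27a, and 378 (3.15%) at a lower level (limma, Benjamini-Hochberg adjusted p under 0.05, two-sided). With 1 probe a gene, these were 386 genes (4.61%) and 284 genes (3.39%) of 8380. The peroxisomal membrane protein PXMP2 and the endocytic adaptor EPN1 were among the genes highest with miR-23b, and the transcription factor ELF1 and the tight junction protein TJP1 among those lowest. Called differences of genes reached 2.50 in the direction of miR-23b and -3.64 in the direction of miR-27a, and a probe with no gene symbol had the largest positive value of all (2.88) but spread too widely to be called. The median over all genes was 0.01. Every called probe had libraries that did not overlap, but so did many others: both miR-23b libraries lay above all miR-27a libraries for 2803 probes (23.3%) and below them for 2409 (20.1%).

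**Figure D1:**
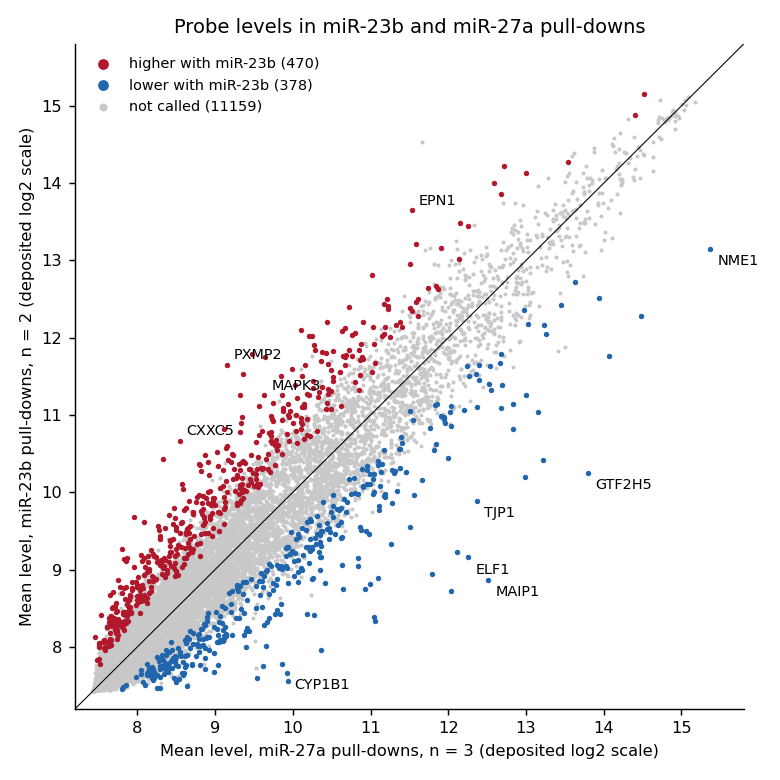
Mean level of each of 12007 probes in the miR-23b pull-downs (vertical, n = 2) and in the miR-27a pull-downs (horizontal, n = 3), on the deposited log2 scale, with called probes colored and the line of equality drawn. Most probes lie along the line. The 470 higher probes sit above it and the 378 lower probes below it, with MAIP1 and GTF2H5 farthest down.

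The 12 genes with the widest differences in the direction of miR-23b had varied known roles. PXMP2, a channel of the peroxisomal membrane, was at 11.78 and 11.51 with miR-23b, against 8.94, 8.92 and 9.59 with miR-27a. The 8 other libraries lay between 8.93 and 9.49, within the range of miR-27a, so that only the miR-23b libraries stood apart. The direct difference was 2.50 ± 0.22 (SE; adjusted p = 0.000461), and a second probe of the gene gave 1.25 (adjusted p = 0.00475). C15orf61 was at 11.74 and 11.31 with miR-23b, against 9.37, 9.09 and 9.61 with miR-27a. EPN1, or epsin 1, which bends membrane at clathrin-coated pits, was at 13.59 and 13.70 with miR-23b, against 11.69, 11.30 and 11.60 with miR-27a. In both genes the miR-27a libraries again overlapped the other 8, and the direct differences were 2.17 ± 0.25 and 2.12 ± 0.19.

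EIF2D, a translation initiation factor, was at 11.44 and 11.08 with miR-23b, against 9.40, 9.04 and 9.52 with miR-27a. RBPMS2, an RNA-binding protein, was at 12.28 and 11.93 with miR-23b, against 10.38, 9.49 and 10.46 with miR-27a. ARHGAP17 was at 12.04 and 11.99 with miR-23b, against 10.37, 9.99 and 10.28 with miR-27a. For all of them both miR-23b libraries lay above every other library of the series, as they did for 250 of the 470 higher probes. The share of all probes with this pattern was not counted, so nothing is drawn from that number. The second probe of ARHGAP17 had a difference of 1.31 (adjusted p = 0.00111). CXXC5, a CXXC-type zinc finger protein, had the widest spread among the miR-23b values named so far. Its levels were 10.24 and 11.10 with miR-23b, against 8.05, 8.75 and 8.83 with miR-27a (difference 2.13 ± 0.37), and its call was lost without miR-23b replicate 2 (adjusted p = 0.102). That of RBPMS2 was lost without miR-23b replicate 1 (adjusted p = 0.095).

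In a second pattern the miR-27a libraries were also low relative to the other duplexes. RNASEK, or ribonuclease K, was at 12.02 and 11.57 with miR-23b, against 9.50, 9.34 and 9.60 with miR-27a, while the 8 other libraries were at 10.06 to 11.05. MDK, the heparin-binding growth factor midkine, was at 11.83 and 11.68 with miR-23b, against 9.63, 9.44 and 9.85 with miR-27a. Its other libraries filled the gap, from 10.39 to 11.40, and its second probe, near the floor, differed by 0.06. FAU, whose product is cut into a ubiquitin-like protein and a ribosomal protein, was at 12.35 and 13.29 with miR-23b, against 10.79, 11.36 and 10.91 with miR-27a. Its call did not hold without either miR-23b library (adjusted p = 0.0503 and 0.161) or without miR-27a replicate 1 (0.0552). OXA1L, which inserts proteins into the inner mitochondrial membrane, and SHISA5, a membrane protein of the endoplasmic reticulum, completed the 12 with differences of 2.10 and 1.76, the call of SHISA5 being lost without miR-23b replicate 1 (adjusted p = 0.0715).

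The 12 widest differences in the direction of miR-27a ran from -3.64 to -2.22, against 1.76 to 2.50 in the other direction. MAIP1, a mitochondrial matrix protein that interacts with an AAA protease, was at 8.70 and 9.04 with miR-23b, against 12.32, 12.13 and 13.07 with miR-27a. GTF2H5, the smallest subunit of TFIIH, which opens DNA in transcription and repair, was at 10.32 and 10.19 with miR-23b, against 13.81, 13.60 and 13.99 with miR-27a. ELF1, an ETS family transcription factor, was at 9.13 and 9.19 with miR-23b, against 12.57, 11.87 and 12.34 with miR-27a. In all of them the miR-27a libraries lay above every other library, as they did for 227 of the 378 lower probes. Here too the share of all probes with this pattern was not counted. The direct differences were -3.64 ± 0.30 for MAIP1, -3.55 ± 0.17 for GTF2H5 and -3.10 ± 0.19 for ELF1, with adjusted p-values of 0.000461, 1.45e-05 and 6.84e-05.

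TJP1 (ZO-1), a scaffold of tight junctions, was at 9.60 and 10.19 with miR-23b, against 12.36, 12.21 and 12.53 with miR-27a. Both of its probes were called, with differences of -2.47 and -2.18. CYP1B1, a cytochrome P450, was at 7.73 and 7.59 with miR-23b, against 10.11, 9.58 and 10.08 with miR-27a. It was near the floor with every other duplex as well (7.73 to 7.90), so that among these libraries it stood clearly above the floor with miR-27a alone. KIF2A, a kinesin that takes microtubules apart, was at 8.33 and 8.44 with miR-23b, against 10.90, 10.65 and 11.60 with miR-27a. SNN (stannin) was at 8.0 and 7.92 with miR-23b, against 10.59, 9.81 and 10.71 with miR-27a.

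Other members of this group had a wide spread among the miR-27a libraries. INTS12, a subunit of the Integrator complex, was at 9.38 and 9.09 with miR-23b, against 12.68, 10.69 and 12.96 with miR-27a. SF3B4, of the splicing factor SF3b, was at 10.42 in both miR-23b libraries, against 13.71, 12.03 and 13.91 with miR-27a. In both genes miR-27a replicate 2 was the low one, and the calls were lost without either miR-23b library (adjusted p from 0.0792 to 0.101). MRPS18C, of the mitochondrial ribosome, was at 8.40 and 9.50 with miR-23b, against 10.97, 11.17 and 13.25 with miR-27a. Its difference of -2.85 ± 0.71 had the largest error among these genes (adjusted p = 0.0417), and no call was made when any 1 of several libraries was left out (adjusted p from 0.0563 to 0.289). DNAJC8, a J-domain protein of the spliceosome, differed by -2.30 and NME1, a nucleoside diphosphate kinase, by -2.22. NME1 had 3 probes, with differences of -2.22, -3.31 and -1.05, of which the last was not called.

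**Figure D2:**
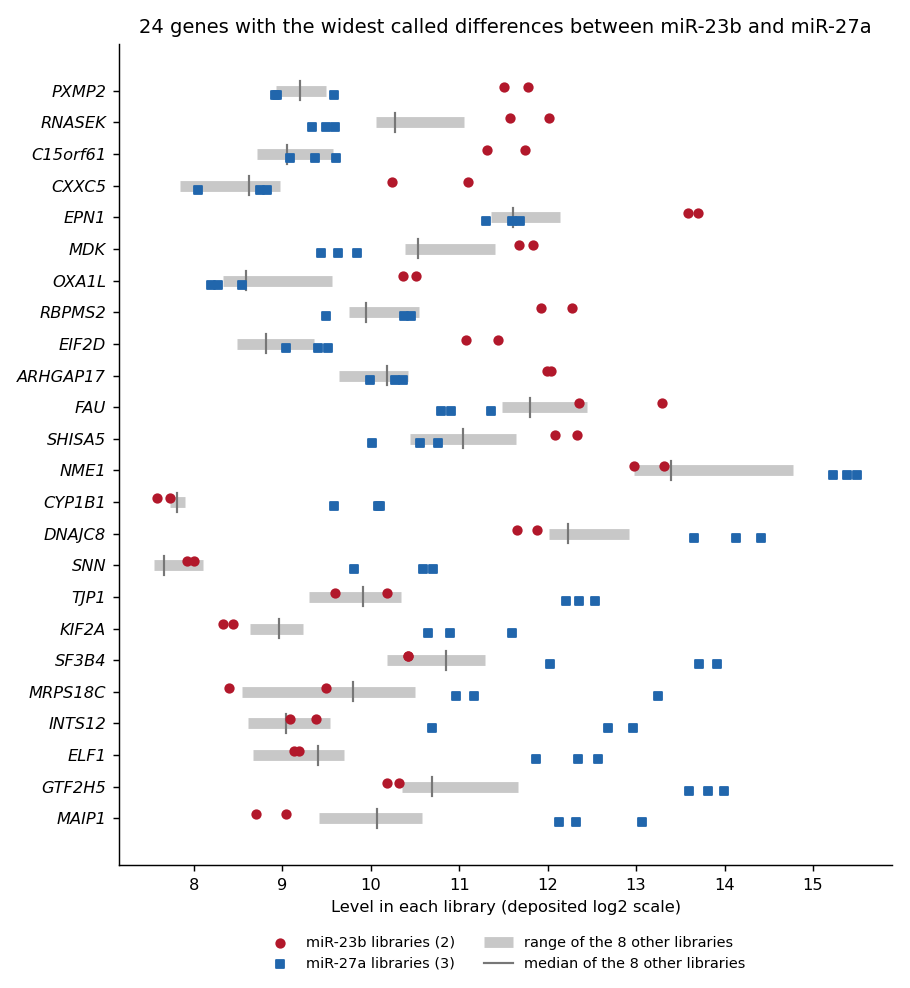
Level in each library, on the deposited log2 scale, of the 24 genes with the widest called differences, ordered by that difference. Circles are the 2 miR-23b libraries, squares the 3 miR-27a libraries, and gray bars and ticks the range and median of the 8 other libraries. In many genes, such as PXMP2 and ELF1, 1 duplex stands apart from the gray bar and the other lies on it. RNASEK and MDK have the bar between both.

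Where a gene had a second probe, it mostly lay on the same side. Of 70 higher genes with another probe, the second probe was above 0 for 69 and called for 21, and of 74 lower genes it was below 0 for 71 and called for 24. The genes also differed in size, which the test did not use. The median genomic span was 12.7 kb for genes higher with miR-23b and 38.0 kb for genes lower with miR-23b, against 28.9 kb for all genes with a span. Their median levels were alike, at 9.33 and 9.29. Genomic span includes introns and is not the length of the captured mRNA, and its part in the differences was not tested.

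To place each direct difference, both duplexes were set against the outside duplexes, the mean of the miR-17 family and miR-182-iso with equal weight. With miR-23b, 1270 probes (10.6%) were higher than with the outside duplexes, and with miR-27a 2241 (18.7%). By genes, 11.7% were higher and 9.21% lower with miR-23b, and 20.6% were higher and 20.8% lower with miR-27a. Both comparisons share the same 8 libraries, so whatever is particular to those moves both alike. Of the 470 probes higher with miR-23b than with miR-27a, 245 were higher with miR-23b than outside and 240 were lower with miR-27a than outside. Of the 378 lower probes, 314 were higher with miR-27a than outside and 58 were lower with miR-23b than outside. Called in neither outside comparison were 27 of the higher and 20 of the lower probes. A gene named as higher here need not be above the outside duplexes. UQCRQ, COX6A1, SNRPA, MAPK7, RARA, TUBB2B, RPL18, CLTA and XPO5, among others named below, were not called higher with miR-23b than outside. All of these were lower with miR-27a than outside (-1.53 to -0.46). Likewise, a gene named as lower need not be above the outside duplexes with miR-27a. COX5A and PSMA1, named below, were not called higher with miR-27a than outside (0.26 and 0.29). Both were lower with miR-23b than outside (-1.17 and -0.89).

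An mRNA was taken as captured by both when it was higher in both outside comparisons, and by 1 only when it was higher in that duplex's outside comparison, not in the other, and also differed directly in the same direction. By these rules 694 probes (532 genes) were captured by both, 237 probes (193 genes) by miR-23b only and 303 probes (230 genes) by miR-27a only. A further 339 probes passed the outside comparison of miR-23b alone and 1244 that of miR-27a alone with no direct difference in that direction called. They were left without a class, since passing 1 comparison and missing the other does not show a difference. Of the 694 probes captured by both, 675 had no direct call, 8 were higher with miR-23b and 11 were lower. Of all 12007 probes, 3.91% were higher and 3.15% lower, so most of any set has no direct call.

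**Figure D3:**
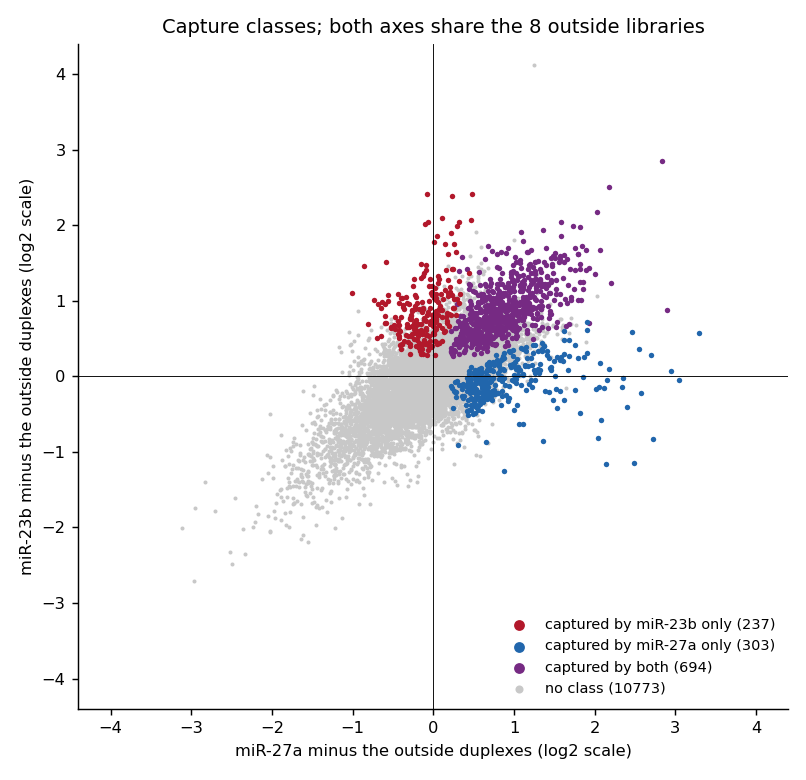
Difference of each probe from the outside duplexes, with miR-23b vertical and miR-27a horizontal, on the log2 scale. The 694 probes captured by both lie in the upper right, the 237 of miR-23b only in the upper part and the 303 of miR-27a only toward the right. Both axes subtract the same 8 libraries, which by itself stretches the points along the diagonal.

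Among the genes captured by both with the widest margins, the levels of both duplexes lay close together and above the outside duplexes. MIS12, a kinetochore protein, was at 13.03 and 12.87 with miR-23b and at 13.10, 12.34 and 13.36 with miR-27a, against 9.43 to 11.06 in the 8 other libraries. Its libraries overlapped fully between both duplexes, with a direct difference of 0.02 (95% interval -0.72 to 0.76). TOPBP1, which activates the DNA damage checkpoint, was at 11.48 and 11.52 with miR-23b and at 11.78, 11.78 and 11.46 with miR-27a, against 9.03 to 10.91. FLAD1, which makes FAD, was at 10.52 and 10.59 with miR-23b and at 10.98, 10.56 and 11.27 with miR-27a, against 8.42 to 9.69. CCBE1, a secreted factor of lymphatic development, was at 12.39 and 12.52 with miR-23b and at 12.29, 11.93 and 12.17 with miR-27a, against 8.88 to 11.67. All of these lay above every outside library with both duplexes.

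ARL16, MCMDC2, MCM8 and IL10 completed the 8 widest of this class, at 12.48 or more with either duplex. IL10 is a cytokine of immune cells, and its probe was also at 10.06 to 12.48 in the 8 other libraries. For these genes the outside libraries spread over more than 2 log2 units, with miR-182-iso lowest. The level with miR-182-iso weighed on the whole class: its mean lay below that of the miR-17 family for 647 of the 694 probes, against 6103 of all 12007 (50.8%). With the miR-17 family alone as comparator 245 probes were captured by both, of which 209 were among the 694, and of the 8 genes 4 kept the class (MIS12, CCBE1, TOPBP1 and FLAD1). The classes of 1 duplex moved less, with 154 of 237 and 213 of 303 probes kept. Their rule also asks for the direct call, which holds no outside level, so less movement is partly built in. The miR-182-iso mean lay below that of the miR-17 family for 120 of the 237 and 217 of the 303.

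Among genes captured by miR-23b only, PXMP2, EIF2D, C15orf61, RBPMS2, ZNF358 and EPN1 had the largest outside differences, from 2.05 to 2.42, beside outside differences of -0.08 to 0.48 with miR-27a. ZNF358, a zinc finger protein, was at 11.68 and 11.52 with miR-23b, against 10.06, 9.44 and 10.47 with miR-27a, a direct difference of 1.61 ± 0.38. Among genes captured by miR-27a only, ELF1, INTS12, GTF2H5, SNN, SLC46A3 and MAIP1 had outside differences of 2.49 to 3.05, beside -1.15 to 0.36 with miR-23b. SLC46A3, a lysosomal transporter, was at 8.88 and 8.62 with miR-23b, against 11.25, 10.05 and 11.51 with miR-27a, a direct difference of -2.19 ± 0.38. The calls of ZNF358 and SLC46A3 were both lost without either miR-23b library (adjusted p from 0.0775 to 0.211), and that of ZNF358 also without miR-27a replicate 1 or 2 (0.0653 and 0.0888). The median outside difference of the 532 genes captured by both was 0.82 with miR-23b and 0.83 with miR-27a, which the rule itself favors.

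Among the targets known from published reporter assays, 1 gene was called in the direct comparison, SMAD4, and it was lower with miR-23b. Of 34 genes listed for miR-23b, 21 were measured: none was higher with miR-23b than with miR-27a, and 1 was lower (4.76% called), beside 4.61% and 3.39% of all genes (8.0% in all). Their median direct difference was -0.20, against 0.01 for all genes. Of the 21, 14 lay below 0 and 7 above it, while 4376 of all 8380 genes lay above 0. In the outside comparisons 3 of the 21 (MET, PAK2 and YES1) were higher with miR-23b and 1 was lower, beside 11.7% and 9.21% of all genes. With miR-27a 10 were higher, those 3 included, and 4 were lower, beside 20.6% and 20.8%. These counts are against other duplexes. Against mock-transfected controls, a comparator not used here, the study reported reporter targets of miR-23b and of miR-27a over-represented among enriched genes. The kinase PAK2 was at 11.20 and 11.19 with miR-23b, against 10.93, 10.87 and 10.41 with miR-27a and up to 10.53 with the miR-17 family. Its difference of 0.45 was not called, and its 95% interval ran from -0.19 to 1.10.

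MET, the receptor of hepatocyte growth factor, was at 9.20 and 9.19 with miR-23b, against 9.60, 9.40 and 9.25 with miR-27a. YES1, a SRC family kinase, averaged 10.73 ± 0.16 with miR-23b and 10.88 ± 0.16 with miR-27a (SD, n = 2 and 3). The direct differences were -0.22 (95% interval -0.63 to 0.19) and -0.15 (-0.65 to 0.35), so that differences in either direction remain possible within these bounds. By the outside comparisons each was captured by both. For MET both duplexes lay within the range of the miR-17 family (8.20 to 9.77), and miR-182-iso lay below it (7.88 and 8.05). For YES1 the miR-17 family reached 10.63, above the lower miR-23b library (10.61). SMAD4, the shared signal transducer of the transforming growth factor β family and the called reporter target, was at 9.28 and 9.56 with miR-23b, against 9.93 to 10.32 with miR-27a, a difference of -0.66 ± 0.15 (adjusted p = 0.0288). The kinases CHUK and MAP3K1 and the ubiquitin ligase subunit VHL had similar values, -0.72, -0.70 and -0.71, without reaching the threshold (adjusted p = 0.0969, 0.0788 and 0.183).

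Of 16 genes listed for miR-27a, 9 were measured and none was called in the direct difference in either direction, beside 8.0% of all genes, with a median of 0.28. The largest value was that of FADD, an adaptor of death receptors, at 9.90 and 9.71 with miR-23b, against 9.42, 9.02 and 9.31 with miR-27a (0.56, 95% interval 0.21 to 0.91, adjusted p = 0.0617). PPARG, the nuclear receptor of fat cells, had a difference of 0.42 and PHB1, prohibitin, of 0.38, with adjusted p-values of 0.378 and 0.0995. SPRY2, an inhibitor of receptor tyrosine kinase signaling, is listed for both miRNAs. It was at 10.17 and 10.12 with miR-23b, against 10.86, 10.09 and 10.60 with miR-27a, and its interval of -1.10 to 0.35 included 0. In the outside comparisons none of the 9 was higher and 2 were lower with miR-23b, beside 11.7% and 9.21% of all genes, and 2 were higher (FOXO1 and SPRY2) and 2 lower with miR-27a, beside 20.6% and 20.8%.

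**Figure D4:**
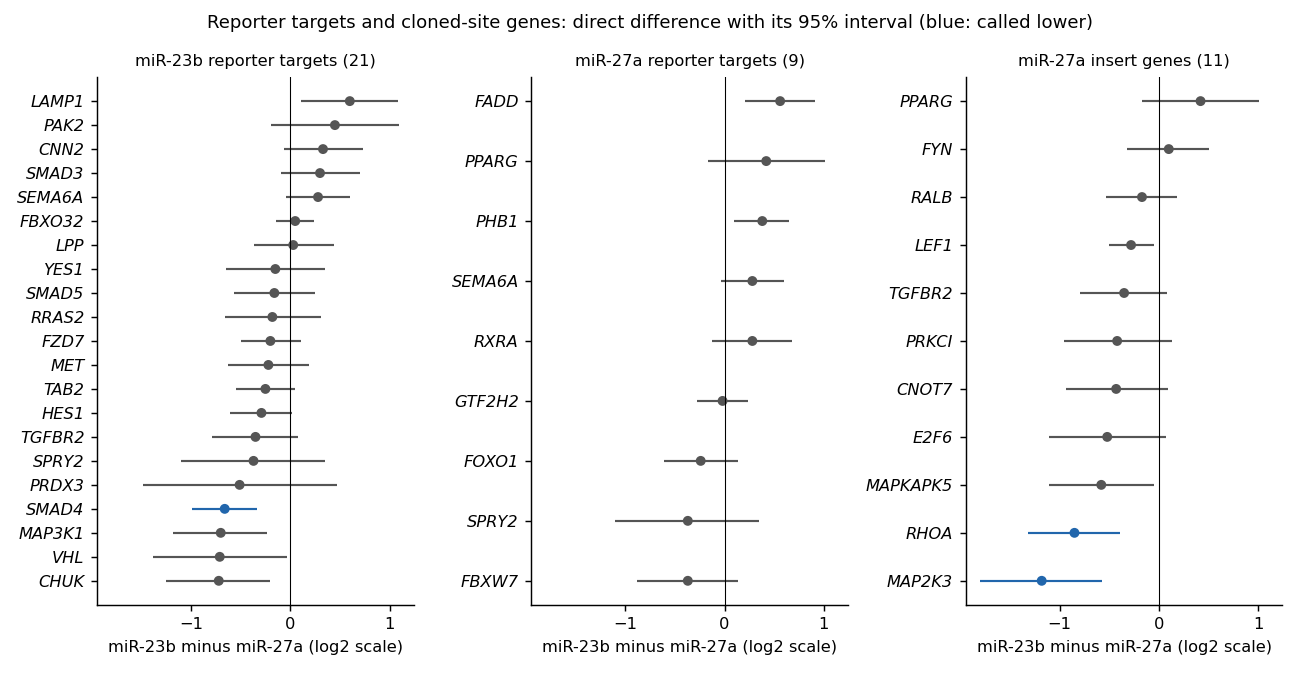
Direct difference, miR-23b minus miR-27a on the log2 scale, with its 95% interval, for the measured reporter targets of miR-23b (21), the reporter targets of miR-27a (9) and the genes whose sites were cloned for miR-27a (11). SMAD4, RHOA and MAP2K3 are called, all below 0. Of the miR-27a insert genes 9 of 11 lie below 0, while 4376 of all 8380 genes lie above 0.

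Another list held the genes from which the study cloned short miR-27a sites into a reporter. The study picked them among mRNAs enriched in its miR-27a pull-down, so their direction is not independent evidence. Of 12 genes 11 were measured, with a median direct difference of -0.42: none was higher and 2 were lower with miR-23b, beside 4.61% and 3.39% of all genes. MAP2K3, a MAP kinase kinase, was at 9.12 and 9.21 with miR-23b, against 10.69, 9.74 and 10.62 with miR-27a (difference -1.18, adjusted p = 0.033). The GTPase RHOA was at 12.12 and 12.23 with miR-23b, against 13.06, 13.26 and 12.76 with miR-27a (difference -0.85, adjusted p = 0.0385). For RHOA the 8 other libraries, at 11.75 to 13.23, overlapped both groups, while for MAP2K3 they were at 8.26 to 9.07. LEF1, a transcription factor of WNT signaling, and MAPKAPK5, a kinase below p38, were at -0.28 and -0.58 without a call. The calls of SMAD4, MAP2K3 and RHOA were each lost without either miR-23b library, with adjusted p from 0.0724 to 0.237, and each was also lost without 1 or more of the miR-27a libraries (0.0714 to 0.105).

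The cloned sites show where the single seed substitution falls in a target. Each is given from the designed oligonucleotide, and capitals mark the stretch of the seed match in the first 5 and the bases opposite 11 bases of the middle of miR-27a in the last. For E2F6 the match is to bases 2 to 8, for RHOA and PRKCI to bases 3 to 8, and for LEF1 and FYN to bases 2 to 7 with a further A opposite base 1, which lies outside the seed. In the RHOA and PRKCI inserts this stretch was itself part of a centered match over 11 bases from base 3 of miR-27a. It had 0 mismatches in RHOA and 1 in PRKCI, with 2 G:U pairs in each.
E2F6: tttaccattagACTGTGAgctccttgagg
LEF1: aagtggcttctCTGTGAAttgcctgtaac
FYN: ccgaacctcctCTGTGAAgcattcgagac
RHOA: accttatagttACTGTGtaattagtgcca
PRKCI: caggcgtgctcACTGTGccatctgcacag
MAP2K3: gcagttaccTGGTTGCTGTTttaatt
On the strand shown, ACTGTGA (opposite bases 2 to 8 of miR-27a) was in 1 of the 12 inserts, CTGTGA (bases 2 to 7) in 4 and ACTGTG (bases 3 to 8) in 3, with E2F6 in each count because the motifs overlap. In the 24 inserts cloned for other miRNAs, none of these was found. The miR-27a inserts were built around predicted seed or centered sites of that miRNA, so these counts follow from the design. For miR-27a 1 insert a gene was counted, while for the other miRNAs all inserts were. Of the miR-23b counterparts, AATGTGA (bases 2 to 8) and ATGTGA (bases 2 to 7) were in no insert of either kind. The remaining counterpart, AATGTG (bases 3 to 8), was in none of the 12 and in 1 of the 24 others (4.17%). TGTGA, opposite the bases 2 to 6 that both miRNAs share, was in 4 of the 12 (33.3%) and 3 of the 24 (12.5%). The 11 bases shown for MAP2K3 were opposite bases 3 to 13 of miR-27a with 1 mismatch and 4 G:U pairs, and the best such window for miR-23b in that insert had 3 mismatches. These are matches of letters within the inserts, and whole transcripts were not searched.

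E2F6, LEF1, FYN, RHOA and PRKCI, whose inserts held a miR-27a seed match of some kind, had direct differences of -0.52, -0.28, 0.10, -0.85 and -0.42. FYN, a SRC family kinase with 4 probes, had differences from -0.04 to 0.10. LEF1 was at 8.85 and 8.95 with miR-23b, against 9.17, 9.15 and 9.20 with miR-27a, and its second probe differed by -0.29. Both LEF1 and CNOT7, a deadenylase subunit, were captured by both, and CNOT7 was at 11.97 in both miR-23b libraries, against 12.30, 12.30 and 12.60 with miR-27a. LEF1 reached 8.94 with the miR-17 family, a level between its miR-23b libraries.

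In transforming growth factor β and bone morphogenetic protein signaling, none of 20 measured genes (of 36 listed) was higher with miR-23b and 3 were lower (ID3, ACVR1 and SMAD4), beside 4.61% and 3.39% of all genes. ID3, an inhibitor of basic helix-loop-helix factors induced by this pathway, was at 8.89 and 9.42 with miR-23b, against 10.45, 10.93 and 11.13 with miR-27a. ACVR1, a type I receptor of bone morphogenetic proteins, was at 8.84 and 8.83 with miR-23b, against 10.12, 9.99 and 10.10 with miR-27a, and the 8 other libraries reached 10.06. Their direct differences were -1.68 ± 0.27 and -1.23 ± 0.20. Both calls were lost without miR-23b replicate 1 (adjusted p = 0.0948 and 0.0731), and that of ACVR1 also without replicate 2 (0.0634). The list's median was -0.14.

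Of 34 measured genes of RAS and MAP kinase signaling (52 listed) 2 were higher and 1 was lower, 8.82% called against 8.0% of all genes. MAPK3 (ERK1) was at 11.30 and 11.21 with miR-23b, against 10.07, 9.21 and 9.60 with miR-27a, and both of its probes were called (1.63 and 1.56). MAPK7 (ERK5) was at 9.12 and 9.18 with miR-23b, against 8.39, 8.32 and 8.32 with miR-27a, but its second, dimmer probe differed by 0.13. The lower gene was MAP2K3, and the call of MAPK3 did not hold without miR-23b replicate 1 (adjusted p = 0.0585). In PI3K, AKT and apoptosis 1 of 39 measured genes was called (2.56%), BCL2L1 (BCL-XL), a protector against apoptosis. It was at 10.10 and 10.28 with miR-23b, against 9.47, 9.20 and 9.39 with miR-27a. With miR-182-iso it was as high as with miR-23b, at 10.29 in both libraries.

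Nuclear receptors and lipid metabolism, the field in which miR-27 is best known, gave 2 higher and 2 lower genes of 33 measured (50 listed), 12.1% called against 8.0% of all genes, with a median of 0.04. ACLY, which makes cytosolic acetyl-CoA for lipid synthesis, was at 11.20 and 11.31 with miR-23b, against 13.42, 12.50 and 13.08 with miR-27a. Its second probe had a difference of -0.97 and was not called. ACSL4, an acyl-CoA synthetase, was lower, with a difference of -0.83. The retinoic acid receptor RARA and the coactivator NCOA1 were higher, by 0.79 and 0.70, but the second probe of NCOA1 differed by 0.18 and was not called. ACSL4, RARA and NCOA1 each lost the call without either miR-23b library (adjusted p from 0.0757 to 0.24), and RARA and NCOA1 also without miR-27a replicate 2 or 3 (0.0661 to 0.0909).

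Genes of the mitochondrion were called in both directions. For oxidative phosphorylation 63 of 76 listed genes were measured, 2 of them higher and 5 lower (11.1% called, against 8.0% of all genes), with a median of 0.27. UQCR10, of complex III, was at 8.98 and 8.81 with miR-23b, against 11.36, 9.75 and 12.16 with miR-27a, and neither of its other probes was called. ATP5PO, of the ATP synthase stalk, was at 10.92 and 11.15 with miR-23b, against 12.68, 13.07 and 13.72 with miR-27a. Among the 8 other libraries ATP5PO was at 10.67 to 11.77 with the miR-17 family and at 13.20 and 13.67 with miR-182-iso, so that it was high with 2 unrelated duplexes. COX5A, of complex IV, was at 12.65 and 12.38 with miR-23b, against 14.11, 13.88 and 13.82 with miR-27a. Its 8 other libraries, at 13.53 to 13.87, overlapped those of miR-27a, so that the miR-23b libraries were the low ones. UQCRQ and COX6A1 were higher by 0.83 and 0.77. Relative to the outside duplexes they were at -0.63 and 0.03 with miR-23b, and at -1.46 and -0.74 with miR-27a. With respect to the outside duplexes the list had 2 higher and 19 lower genes of 63 for miR-23b, with 42 not called, and 2 higher and 33 lower for miR-27a, beside 9.21% and 20.8% of all genes lower. Of the named genes, ATP5PO, COX6A1, UQCR10 and UQCRQ lost the direct call without miR-23b replicate 1 (adjusted p from 0.0814 to 0.213), and UQCR10 and UQCRQ also without miR-23b replicate 2 (0.173 and 0.118) or single miR-27a libraries (0.0538 to 0.0826).

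Of 76 mitochondrial ribosomal proteins 7 were higher and 4 lower, a share of 14.5% called against 8.0% of all genes. MRPS12 averaged 12.09 ± 0.12 with miR-23b, against 10.63 ± 0.17 with miR-27a (SD), and MRPL17 was at 10.03 and 9.69 with miR-23b, against 11.33, 11.11 and 11.37 with miR-27a. The differences were 1.46 and -1.41, so that members of 1 complex moved in opposite directions. MRPS15 and MRPL13 were higher (1.10 and 0.93), and MRPS18C, MRPS16 and MRPL30 were lower (-2.85, -1.58 and -0.74). The second probe of MRPL30 differed by -0.18 and was not called. The other probes of MRPS12 differed by 0.96, which was called, and by 0.0, near the floor. Of 69 cytosolic ribosomal proteins only FAU and RPL18 were called (2.9%, against 8.0% of all genes), both higher. RPL18 was at 14.16 and 14.38 with miR-23b, against 13.50, 13.61 and 13.50 with miR-27a. Of that list 8 genes were lower with miR-23b than with the outside duplexes and 25 were lower with miR-27a, beside 9.21% and 20.8% of all genes. Except for MRPL17, each gene named here from both lists lost its call without either miR-23b library (adjusted p from 0.0503 to 0.3), and except for MRPL17, MRPS12 and RPL18 also without 1 or more miR-27a libraries (0.0501 to 0.113). Probes for ribosomal proteins may also bind transcripts of their processed pseudogenes.

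Endocytosis and vesicle traffic had 5 higher genes and 1 lower of 64 measured (70 listed), 9.38% called against 8.0% of all genes, with a median of -0.12. Beside EPN1 these were AP2S1, a subunit of the clathrin adaptor AP-2, RAB7A, the GTPase of late endosomes, the clathrin light chain CLTA, and EPS15L1. AP2S1 was at 14.15 and 14.11 with miR-23b, against 13.24, 12.71 and 13.05 with miR-27a, and both of its probes were called. RAB7A was at 11.75 and 11.77 with miR-23b, against 10.79, 10.75 and 10.41 with miR-27a. The second probe of CLTA differed by 0.47 and was not called. RAB18, a GTPase of lipid droplets and the endoplasmic reticulum, was lower, with a difference of -0.60. Of 26 junction and adhesion genes (7.69% called) VCL, vinculin, was higher (0.99) and TJP1 lower, and the second probe of VCL, at the floor, differed by 0.01. The calls of AP2S1, CLTA, RAB18 and VCL were lost without either miR-23b library (adjusted p from 0.064 to 0.238), and those of CLTA, RAB18 and VCL also without 1 or more miR-27a libraries (0.0537 to 0.119).

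In the miRNA silencing machinery 2 of 37 measured genes were higher and 1 lower, 8.11% called against 8.0% of all genes. GEMIN4, found in complexes with Argonaute proteins, was at 10.48 and 10.80 with miR-23b, against 9.56, 9.82 and 9.82 with miR-27a. XPO5, the exporter of miRNA precursors, was at 9.73 and 9.74 with miR-23b, against 9.10, 9.14 and 8.97 with miR-27a. For both genes the miR-27a libraries lay below all outside libraries, and GEMIN4 was below the outside median with miR-23b too. CNOT9, of the CCR4-NOT deadenylase, was lower (-0.75). Of 52 spliceosome genes (5.77% called) SNRPA was higher (1.04), and SF3B4 and SNRPD1 were lower (-2.80 and -0.64). All of these calls were lost without miR-23b replicate 1 (adjusted p from 0.067 to 0.24) and, except for SNRPA, without replicate 2 (0.0682 to 0.207). Those of GEMIN4, CNOT9 and SNRPD1 were also lost without 1 or more miR-27a libraries (0.0547 to 0.107).

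The remaining lists had few calls. Of 35 proteasome genes PSMA1 was lower (-1.17), which is 2.86% called, and of 40 genes of tubulins and mitosis TUBB2B was higher (0.88) and KIF2A lower, which is 5.0%, against 8.0% of all genes. The second probe of PSMA1 differed by -0.62 and was not called. None of 17 glycolysis genes was called, with direct differences from -0.29 to 1.11, while 4 were lower with miR-23b than with the outside duplexes and 12 with miR-27a, beside 9.21% and 20.8% of all genes. Of 210 ZNF zinc finger genes 6 were higher and 4 lower (4.76% called, against 8.0% of all genes). ZNF358, ZNF580, ZNF213 and ZNF385A were higher by 0.89 to 1.61, and ZNF329, ZNF561, ZNF131 and ZNF594 were the lower ones, at -1.0 to -0.35. The second probe of ZNF580, near the floor, differed by 0.03. Of the genes named in this paragraph only KIF2A kept its call without miR-23b replicate 1 (adjusted p of the others from 0.115 to 0.311), and without miR-23b replicate 2 only KIF2A, ZNF213 and ZNF385A did (0.0809 to 0.215). TUBB2B, ZNF358, ZNF329, ZNF131 and ZNF594 also lost theirs without 1 or more miR-27a libraries (0.0514 to 0.111). Over all lists 59 of 832 measured genes were called, 7.09% against 8.0% of all genes. AOPEP, the gene that hosts the miR-23b cluster, had no probe in the table.

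**Figure D5:**
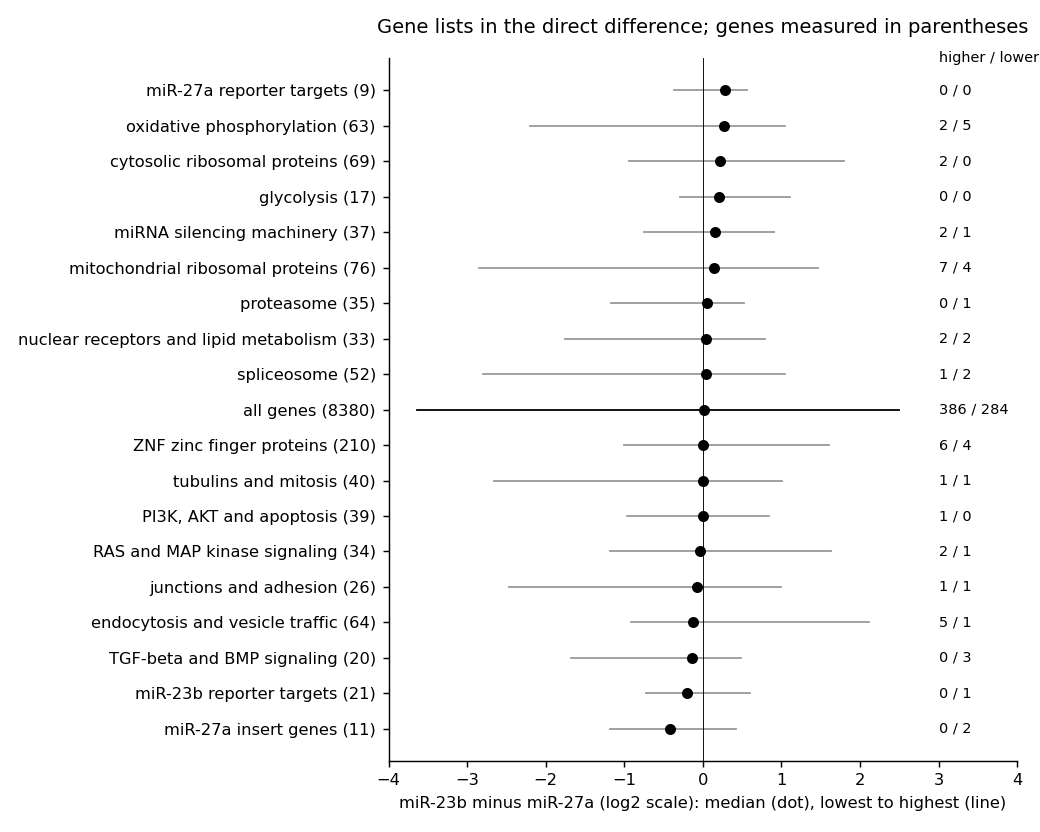
Direct difference, miR-23b minus miR-27a on the log2 scale, for each gene list and for all genes: dots are medians, lines run from the lowest to the highest gene, and the numbers at the right count genes called higher and lower. The medians lie between -0.42 for the miR-27a insert genes and 0.28 for the miR-27a reporter targets, and all genes are at 0.01.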

How the data were processed

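The authors captured mRNA with biotinylated duplexes from HEK293T cells, hybridized it to Illumina HT-12 arrays and processed the signals with lumi 2.2.1 (background adjustment, variance-stabilizing transformation, robust spline normalization), keeping probes detected in mock-transfected controls. The log2 values that the authors deposited were used as given. More than 1 array version was used in the study (by library: not given in the sources used here). A non-normalized table (26 columns of signals and detection p-values) was not used, since its column names match no sample. Symbols come from the platform annotation, matched by gene ID to RefSeq (GRCh38.p14) for 10442 of 12007 probes; 1562 probes had no symbol and 1 had several. The probe with the highest mean represents a gene. No library pair was identical.

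All 13 libraries entered 1 limma 3.58.1 model of 5 group means (R 4.3.3, eBayes), with contrasts miR-23b minus miR-27a and each against the outside duplexes, two-sided, Benjamini-Hochberg adjusted over 12007 probes, called at 0.05. The script was tested on simulated data. Intervals are 95%, from the moderated fit. The number of arrays limits precision. Members and lists were chosen with earlier results of these data known. Named genes were the 12 widest called differences each way, the 8 widest captured by both, 6 of each single class, called list members (at most 4 each way, or the 4 widest of a target list with none) and genes the study or earlier results named with either miRNA; EPS15L1 and single target genes were named after their values were seen. Sequences come from the study's supplementary tables and RefSeq. Tables used Python 3.11.15 (pandas 2.3.3, scipy 1.17.1, matplotlib 3.10.9).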

Additional observations from a re-analysis of the deposited data

Results flagged for a closer look

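A set of probes moved in opposite directions with the 2 duplexes relative to the outside duplexes, both calls being made and the direct difference also being called: 42 probes (36 genes) were higher with miR-23b and lower with miR-27a, and 14 probes (13 genes) were lower with miR-23b and higher with miR-27a. Among the named genes, the first kind held RNASEK (outside difference 1.45 with miR-23b and -0.86 with miR-27a, direct difference 2.32), MDK (1.11 and -1.0, direct 2.11), OXA1L (1.52 and -0.58, direct 2.10) and SHISA5 (1.01 and -0.74, direct 1.76). MAPK3 (direct 1.63), RAB7A (1.11), ZNF213 (1.02) and BCL2L1 (0.84) were of the same kind, although BCL2L1 was as high with miR-182-iso (10.29) as with miR-23b (10.10 and 10.28). The second kind held MAIP1 (outside difference -1.15 with miR-23b and 2.49 with miR-27a, direct -3.64), GTF2H5 (-0.83 and 2.72, direct -3.55), NME1 (-0.86 and 1.35, direct -2.22), ATP5PO (-1.25 and 0.87, direct -2.12) and ACLY (-0.63 and 1.11, direct -1.75). The comparator weighed on this: with the miR-17 family alone, 12 of the 42 and 3 of the 14 probes had both calls, and of the 13 genes named here 4 did (RNASEK, MDK, MAPK3 and MAIP1). For OXA1L, SHISA5, ZNF213 and BCL2L1 the miR-27a libraries, and for ACLY, ATP5PO and NME1 the miR-23b libraries, overlapped the miR-17 family. RAB7A with miR-23b and GTF2H5 with miR-23b lay just outside that family's range and were not called against it (0.17 and -0.38, adjusted p = 0.47 and 0.144). No cause was tested. Groups of 2 or 3 libraries are too small for a check of single outlying samples.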

How the results depend on the processing

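None of the called named direct differences changed sign under any alternative tried; of the uncalled ones MIS12, LPP and MCMDC2 did, with values near 0 (MIS12 0.02, and -0.06 without miR-23b replicate 1). Of 71 named genes called in the direct comparison, 21 kept the call under every alternative except the stricter thresholds; of the 24 with the widest differences, 17 did. The cause of the changes was not tested, beyond the fewer libraries or probes that an alternative holds by construction. Leaving out 1 library at a time, the probes higher with miR-23b than with miR-27a numbered 65 to 566 (main count 470) and the lower ones 42 to 450 (378); those higher than outside numbered 118 to 1458 for miR-23b (1270) and 1574 to 2361 for miR-27a (2241); captured by both were 62 to 835 (694), by miR-23b only 28 to 274 (237) and by miR-27a only 40 to 356 (303); and list members called were 10 to 81 (59). The lowest counts came without miR-23b replicate 1, except that the count for miR-27a against the outside duplexes was lowest without miR-182-iso replicate 2, and the highest came when miR-17-5p replicate 2 was left out. The other miR-23b library, left out in turn, gave direct counts of 127 and 78. Leaving out a miR-23b library leaves that group with 1 sample, assumed to vary like the others. Moves over 1.5 times also came without miR-27a replicate 1 (233 lower, 185 by miR-27a only), miR-27a replicate 2 (247 higher, 140 by miR-23b only) and miR-182-iso replicate 2 (659 higher with miR-23b than outside, 325 by both, 157 by miR-23b only). Without single libraries of the other duplexes 12 of the named calls were lost by small margins, those of CNOT9, MRPL13, MRPL30, MRPL37, MRPS16, MRPS18C, RAB18, RHOA, SNRPD1, UQCR10, ZNF131 and ZNF594 (adjusted p from 0.0504 to 0.0704).

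At an adjusted p under 0.01 the counts, in the order given above, were 112, 78, 448, 1346, 217, 63, 69 and 18, and with a difference of at least 1 they were 145, 117, 349, 499, 141, 57, 84 and 27. With only the 5 libraries in the fit 194 probes were higher, 92 lower and 25 list members called. With only probes at or above the median level there were 290 higher, 231 lower, 157 by miR-23b only and 170 by miR-27a only. Against the miR-17 family alone 715 probes were higher with miR-23b and 1453 with miR-27a, and 245 were captured by both. Quantile normalization, a variance trend, equal weights for 3 duplexes, one-sided tests and gene means kept every count they apply to within 1.5 times. With the replicate number as a block, 506 probes were higher and 402 lower, 1289 and 2311 were higher than outside with miR-23b and miR-27a, 711, 257 and 320 were in the classes, and 66 list members were called, but 12 of the 71 named calls were lost (adjusted p from 0.0518 to 0.0685), among them RHOA (0.0558), GEMIN4 (0.0564), NCOA1 (0.0527) and CNOT9 (0.0685). The deviations of same-numbered miR-23b and miR-27a libraries correlated at 0.59 and 0.529, and those of miR-17-5p-iso and miR-27a at 0.631, 0.467 and 0.103. With 2 miR-23b libraries the deviations of 1 mirror those of the other, so their correlations are not separate observations. Those of miR-17-5p-iso and miR-23b were also positive (0.567 and 0.45). Since the direct comparison has only 2 shared numbers and correlations with miR-17-5p were mostly negative (-0.334 at the lowest), the numbers were not taken as pairs. Those with miR-17-5p, its own isomiR included (-0.277, -0.164 and 0.335), do not bear on pairs of miR-23b and miR-27a. The block used the numbers of all duplexes, so it is no test of those pairs alone. With 2 against 3 libraries the intervals of many uncalled targets reached beyond 0.5 in size, so a difference that large cannot be told from 0 for them.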
